A study of Mus musculus with 6 samples.

Results

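The genes described here encode adhesion proteins that span the synaptic cleft: Lrrtm1 and Lrrtm2, the neuroligins Nlgn1, Nlgn2 and Nlgn3, and the neurexins Nrxn2 and Nrxn3. Members were all probe sets annotated to exactly 1 of these 7 symbols. There were 6 such probe sets in 4 genes, out of 22690 probe sets on the array: 3 for Lrrtm1 and 1 each for Lrrtm2, Nlgn1 and Nlgn2. Nlgn3, Nrxn2 and Nrxn3 had no such probe set and are reported as not measured. The set was chosen on the signals of Lrrtm2, whose difference between the genotypes was known from these arrays. The differences of the members are therefore a description and carry no test.

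Hippocampal RNA from male mice aged 2 months, on a C57BL/6J background, was hybridised to 6 Affymetrix arrays. The knockout group, Rsk2-KO, and its WT littermates had 3 arrays each, and each array held a pool of 2 hippocampi. Rsk2 is a protein kinase of the ERK pathway, encoded by Rps6ka3. The knockout allele is not described in the labels, and it is unknown whether 1 animal could enter several pools, so the spread between arrays is that between these pools. All values are probe set signals on a linear scale, scaled to a common trimmed mean, and differences are log2 differences, Rsk2-KO minus WT, unless said otherwise. Signals of different probe sets depend on their probes and are not compared with each other.

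Neurexins sit in the presynaptic membrane and bind partners across the cleft, among them the neuroligins and the LRRTM proteins of the postsynaptic membrane. LRRTM proteins carry leucine-rich repeats outside the cell, and LRRTM2 is known for organising excitatory synapses and holding AMPA receptors there. Neuroligin 1 is found mainly at excitatory synapses and neuroligin 2 mainly at inhibitory ones. Nlgn3 encodes a neuroligin of both kinds of synapse.

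Some facts of the arrays bear on every value below. The arrays numbered 3 in the titles, 1 of each genotype, were separated from the other 4 by the first principal component of the kept probe sets (44.9% of the variance), with scores of 31.2 and 36.3 where the others had −23.8 to −6.58. The differences of the kept members and the medians of gene lists are therefore also given for the arrays numbered 3 and for the other 4 arrays. Rps6ka3 itself, at 1455206_at, gave 99.2, 98.4 and 87 on the 3 arrays with the Rsk2-KO label, against 74.2, 59.7 and 89.2 for WT. The groups overlap there, with a log2 difference of 0.37 (SE 0.19). At 1427299_at Rps6ka3 gave 25.4, 22.8 and 35.9 against 13, 16.2 and 31.9, a log2 difference of 0.54 (SE 0.37) with overlapping groups. WT 1 and WT 2 were dim at 1427299_at, below the filter of 19.2 that it passed on its mean over all arrays. A further probe set, 1452383_at, was too dim to be kept and was also higher on average. Rps6ka3 was thus no lower on average in the knockout group. The positions of the probe sets relative to the disruption were not analysed, so they do not check the labels. Genotypes below are those the labels give.

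Lrrtm2 had the widest difference among the members. At its 1 probe set, 1456637_at, signals were 90.4, 67.3 and 52.7 on the arrays Rsk2-KO 1, 2 and 3, and 27.2, 27.6 and 42.2 on WT 1, 2 and 3. The lowest Rsk2-KO array lay above the highest WT array, and the arrays numbered 3 were the closest to each other. The group means were 70.1 ± 19 and 32.3 ± 8.54 (SD, n = 3 arrays each). The log2 difference was 1.11 (SE 0.27), or 2.16-fold between geometric means. Of the 13576 probe sets bright enough to be kept, 34 (0.25%) had a larger difference in either direction. No overlap between the groups, with Rsk2-KO higher, was found in 5.9% of all kept probe sets, and no overlap in either direction in 13.9%. These values are the ones for which Lrrtm2 was chosen, and nothing is read from them.

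The difference of Lrrtm2 was uneven across the array numbers. Set side by side by number, the log2 difference was 1.73 for the arrays numbered 1, 1.28 for those numbered 2 and 0.32 for those numbered 3. Over the arrays numbered 1 and 2 it averaged 1.51. The narrower gap came from both sides: Rsk2-KO 3 had the lowest Lrrtm2 signal of its group and WT 3 the highest of its group. With each array left out in turn the difference lay between 0.91 and 1.32. The filter for kept probe sets was a signal of 19.2, and all 6 arrays were above it, but WT 1 and WT 2 were within 1.5 times of it. With 64 added to every signal before the logarithm, which damps values near background, the log2 difference was 0.47 (SE 0.12).

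**Figure D1:**
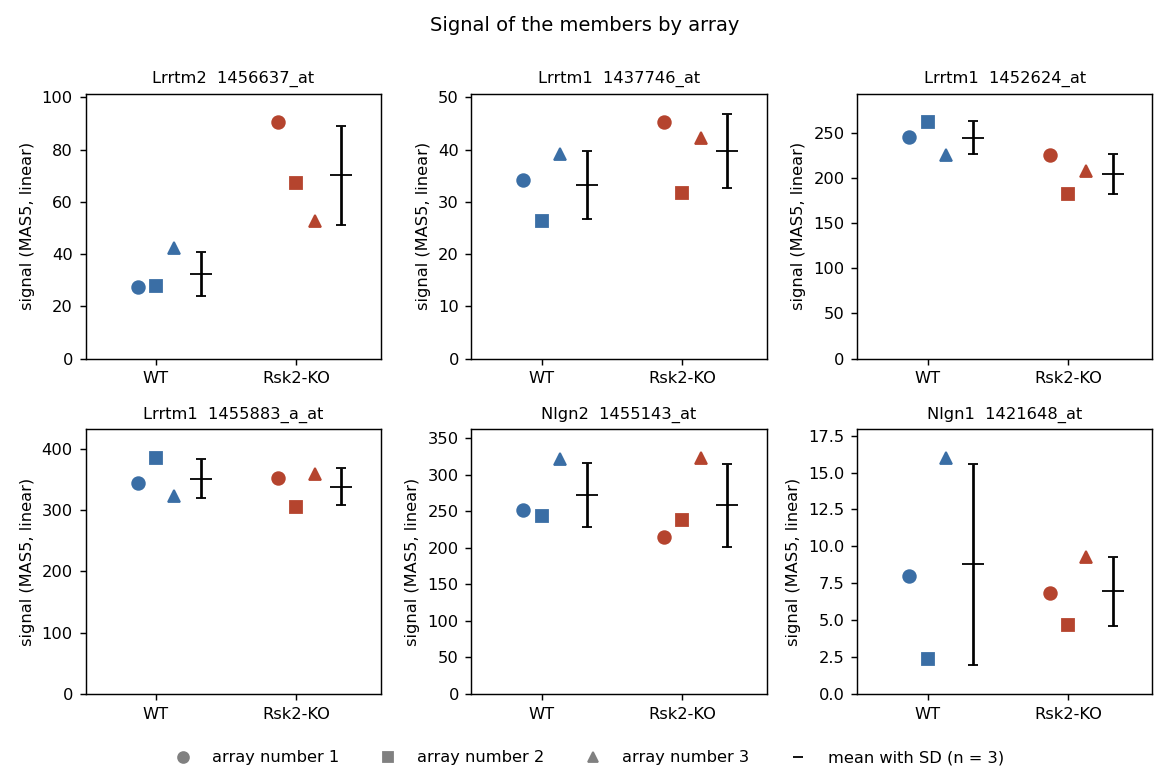
Signal (linear MAS5 scale, from 0) of each member probe set on the 3 WT and 3 Rsk2-KO arrays. Marker shape gives the array number, and the black mark is the mean with its SD. For Lrrtm2 all Rsk2-KO arrays (52.7 to 90.4) lie above all WT arrays (27.2 to 42.2), while for Nlgn2 the highest arrays are the 2 numbered 3.

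Lrrtm1, the closest measured relative of Lrrtm2 among the members, did not show such a difference. Its 3 probe sets did not have the same sign. At 1455883_a_at the signals were 352, 304 and 359 on the Rsk2-KO arrays and 344, 385 and 323 on the WT arrays, which overlap. The group means were 338 ± 29.9 and 351 ± 31.4 (SD, n = 3 arrays each), with a log2 difference of −0.053 (SE 0.14).

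At 1452624_at, Lrrtm1 gave 226, 182 and 208 on the Rsk2-KO arrays against 246, 262 and 226 on the WT arrays. Here every Rsk2-KO array was below every WT array, but Rsk2-KO 1 and WT 3 differed by less than 1 signal unit (226 each when rounded). The means of 205 ± 22 and 245 ± 18 (SD, n = 3 arrays each) gave a log2 difference of −0.26 (SE 0.14). No overlap with Rsk2-KO lower was found in 7.96% of kept probe sets.

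At the dimmest of the 3, 1437746_at, Lrrtm1 gave 45.2, 31.7 and 42.2 on the Rsk2-KO arrays and 34.1, 26.3 and 39.1 on the WT arrays. The groups overlap, and the log2 difference was 0.26 (SE 0.25), opposite in sign to the brighter 2. Between the arrays numbered 3 the log2 differences of Lrrtm1 were 0.15 at 1455883_a_at, −0.12 at 1452624_at and 0.11 at 1437746_at. Over the arrays numbered 1 and 2 they were −0.15, −0.33 and 0.34 in the same order. With arrays left out in turn, 1452624_at stayed between −0.33 and −0.17, 1437746_at between 0.10 and 0.42, and 1455883_a_at crossed 0 (−0.11 to 0.023). Thus no single direction describes Lrrtm1 on these arrays.

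Nlgn2, which encodes the neuroligin of inhibitory synapses, followed the array number rather than the genotype. Its probe set 1455143_at gave 215, 238 and 323 on the Rsk2-KO arrays and 252, 243 and 322 on the WT arrays. The 2 highest arrays were those numbered 3, which were nearly equal (log2 difference 0.0014, against −0.13 over the arrays numbered 1 and 2). The mean log2 signal of these 2 arrays exceeded that of the other 4 by 0.45. Between the genotypes the group means were 258 ± 56.9 and 272 ± 43.6 (SD, n = 3 arrays each), with a log2 difference of −0.086 (SE 0.19). Without Rsk2-KO 1 or without WT 3 the sign turned, and the range with single arrays left out was −0.26 to 0.041.

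Nlgn1, which encodes the neuroligin of excitatory synapses, was too dim to compare. Its probe set 1421648_at gave 6.87, 4.65 and 9.3 on the Rsk2-KO arrays and 7.99, 2.37 and 16 on the WT arrays, all below the filter of 19.2. Signals spread 6.73-fold over the 6 arrays, against 1.27-fold to 3.33-fold for the kept members. No difference was detectable at this signal: the mean log2 signals differed by −0.0083, with SDs of 0.50 among the Rsk2-KO arrays and 1.39 among the WT arrays. This says nothing of whether Nlgn1 is expressed.

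**Figure D2:**
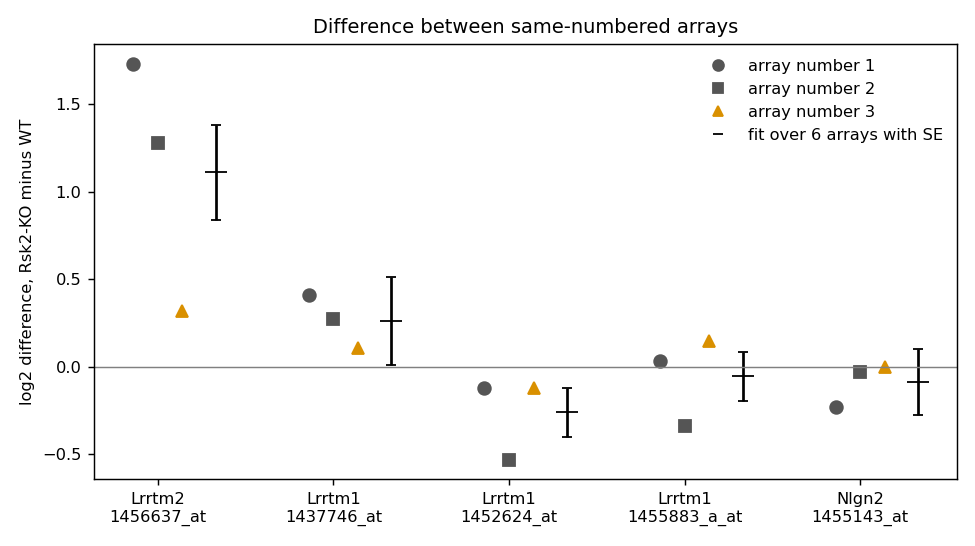
Log2 difference (Rsk2-KO minus WT) of the 5 kept member probe sets between arrays of the same number, with the fit over 6 arrays and its SE in black. The arrays numbered 3 (orange) differ by 0.32 for Lrrtm2, against 1.73 and 1.28 for the other numbers. For Lrrtm1, 1452624_at is below 0 and 1437746_at above 0 at every number, while 1455883_a_at and Nlgn2 have both signs.

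By count, 5 of the 6 member probe sets, in 3 genes, passed the filter, and 2 of these had a positive and 3 a negative log2 difference. The median over the 5 was −0.053, beside −0.016 for all 13576 kept probe sets. In limma, over all kept probe sets and at an adjusted p of 0.05, 0% were called higher and 0% lower. Within the arrays numbered 1 and 2, 176 were called higher and 20 lower. The lowest adjusted p in limma was 0.661, and 937 probe sets had an unadjusted p under 0.05.

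A feature that both LRRTM genes share is their position. In the RefSeq annotation of GRCm38.p6, the span of Lrrtm2 lies inside that of Ctnna1, and the span of Lrrtm1 inside that of Ctnna2. The host genes encode alpha-catenins, which link cadherins to actin. Neither Nlgn2 nor Nlgn3 overlaps another gene there. The values of the host genes are given because of this position, outside the rule for named genes. Ctnna1 at 1437807_x_at gave 192, 174 and 147 on the Rsk2-KO arrays and 132, 144 and 126 on the WT arrays, without overlap, a log2 difference of 0.34 (SE 0.15). At 1448149_at it gave 183, 169 and 209 against 160, 153 and 209, which overlap, a log2 difference of 0.11 (SE 0.17). Another Ctnna1 probe set, 1437275_at, was below the filter on every array. Ctnna2, at 1448895_a_at, gave 125, 145 and 106 against 121, 141 and 85.6, a log2 difference of 0.13 (SE 0.22). The order of the arrays thus matched that of Lrrtm2 in part at 1 Ctnna1 probe set, where Rsk2-KO 1 was highest, and not at the other, where the arrays numbered 3 were highest. Whether RNA of the host transcript enters the Lrrtm2 signal was not tested.

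Gene length moved with the difference on these arrays. Over 10 equal bins of genes by span, the median log2 difference went from −0.12 in the shortest bin (median span 3.02 kb) to 0.073 in the longest (197 kb). Lrrtm2 spans 6.02 kb, and the 785 other genes in its bin (4.55 to 8.06 kb) had a median log2 difference of −0.12, with 5th and 95th percentiles of −0.40 and 0.32. Lrrtm1 spans 30.7 kb and Nlgn2 14.7 kb, and the medians of their bins were −0.04 and −0.089. The part of gene length in the members' differences was not tested.

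The amount of neuronal RNA was examined because the LRRTM and neuroligin genes are neuronal. The 5 measured of 6 neuronal markers and the 5 measured of 7 hippocampal principal cell markers all passed the filter. Since 5 of 6 thalamic markers passed it too, this does not identify the tissue. The summed signal of the neuronal markers Snap25, Syt1, Rbfox3, Camk2a and Map2 was 4683, 4543 and 4360 on the Rsk2-KO arrays and 3737, 4265 and 4006 on the WT arrays. Every Rsk2-KO array was above every WT array. The sum for Prox1, Wfs1, Zbtb20, Neurod6 and Calb1, markers of principal cells, was 1733 to 1819 against 1472 to 1671, also without overlap. No marker of either list was without overlap by itself, and the median log2 differences were 0.19 and 0.09. Snap25 and Syt1 made up most of the neuronal sum. In the principal cell list the widest difference was that of Neurod6 (0.59, SE 0.45). On Rsk2-KO 3 and WT 3, Neurod6 was lowest (183 and 122) and Calb1 highest (913 and 833), so the sum joins opposite patterns by array number. In each list 4 markers were higher on average and 1 was lower, Rbfox3 (−0.18) and Prox1 (−0.28). In bulk tissue, fewer cells of a type and less RNA per cell cannot be told apart. The part of neuronal content in the Lrrtm2 difference was not tested.

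Sums of the other marker lists overlapped between the genotypes. Their median log2 differences were 0.22 for interneurons (5 of 6 above 0), 0.38 for choroid plexus and 0.10 for thalamus. They were 0.0067 for astrocytes, 0.039 for oligodendrocytes, 0.021 for striatum, −0.034 for microglia and −0.20 for endothelial and mural cells. A higher median was thus not particular to the neuron and principal cell lists. Npy, Gjb6 and Rgs5 were higher without overlap and Trem2 and Vtn lower, beside 5.9% and 7.96% of kept probe sets. Astrocyte markers summed to 3967 to 5496 on the Rsk2-KO arrays and 4196 to 5659 on the WT arrays, and oligodendrocyte markers to 4819 to 5317 and 4290 to 5932. For interneurons the sums were 2124 to 2469 and 1888 to 2304, for microglia 994 to 1058 and 1042 to 1168, and for endothelial and mural cells 929 to 961 and 914 to 1027. Choroid plexus markers, of which 2 of 6 were kept, varied most, from 536 to 1663 and from 703 to 2165. For markers of neighbouring tissue, striatal sums were 91.4 to 111 and 83.8 to 115 (2 of 6 kept), and thalamic sums 297 to 379 and 239 to 349 (5 of 6 kept).

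The genes whose profile over the 6 arrays was most like that of Lrrtm2 were Hspa4, Abhd18, Polr3f, Stxbp3 and Arhgap12. Likeness was the root mean square distance between log2 signals centred on their mean over the 6 arrays, among 7863 genes at their brightest kept probe set. The distances were 0.164 for Hspa4, a chaperone of the Hsp110 family, 0.205 for Abhd18, 0.206 for Polr3f, a subunit of RNA polymerase III, 0.236 for Stxbp3, a partner of syntaxins, and 0.24 for Arhgap12. The median distance of all genes was 0.694. Of the members, the Lrrtm1 probe set 1437746_at was at 0.509, 1455883_a_at at 0.685, Nlgn2 at 0.724 and 1452624_at at 0.762.

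Hspa4 at 1435194_at gave 290, 240 and 158 on the Rsk2-KO arrays and 117, 102 and 148 on the WT arrays. As for Lrrtm2, Rsk2-KO 1 was the highest and Rsk2-KO 3 the lowest array of its group, and WT 3 was the highest WT array. Between the arrays numbered 3 the log2 differences were 0.093 for Hspa4, 0.54 for Abhd18, −0.10 for Polr3f, 0.49 for Stxbp3 and 0.21 for Arhgap12, against 1.27, 1.25, 1.47, 1.14 and 0.99 over the arrays numbered 1 and 2. All 5 thus had the narrower gap between the arrays numbered 3 that Lrrtm2 had, which the measure of likeness favours. Other kept probe sets of Hspa4 were further from Lrrtm2, at 0.394 and 0.518, and another of Polr3f, 1451773_s_at, was at 0.285. Abhd18, Stxbp3 and Arhgap12 had no other kept probe set. Abhd18 gave 36.3, 26.1 and 25.7 on the Rsk2-KO arrays and 10.5, 15.8 and 17.7 on the WT arrays. Every WT signal of Abhd18 was thus below the filter, which it passed on its mean over all arrays. Its differences and its distance to Lrrtm2 therefore rest on dim WT signals. Polr3f was dim as well, with 19.4 and 23 on WT 1 and WT 2 at 1439075_at and 15.9 on WT 1 at 1451773_s_at.

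**Figure D3:**
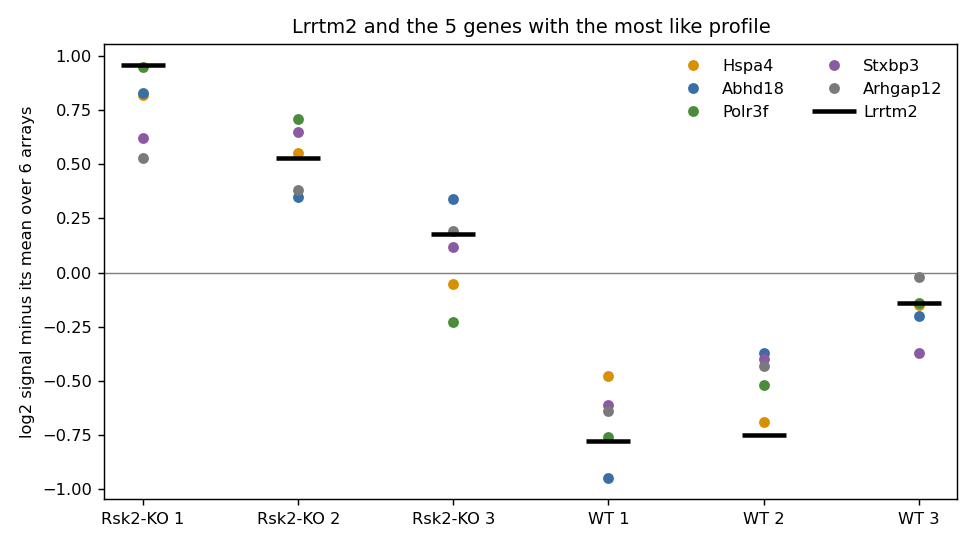
Log2 signal minus its mean over the 6 arrays for Lrrtm2 (black bars) and the 5 genes closest to it in root mean square distance (dots), by array. Rsk2-KO 1 and 2 are high and WT 1 and 2 low for all 6 genes, and the arrays numbered 3 lie nearer to 0.

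Other genes of trans-synaptic adhesion were taken from a list of 101 genes, of which 64 had a probe set of a single symbol and 53 passed the filter. None of the 53 passed an adjusted p of 0.05 in limma, against 0% of all genes in either direction. An unadjusted p under 0.05 was found in 3 of the 53, beside 937 of all 13576 kept probe sets, and nothing is read from it. At the brightest probe set, 37 had a positive and 16 a negative log2 difference. The median was 0.081, beside −0.038 for all 7866 genes. It was 0.079 over the arrays numbered 1 and 2, 0.076 between those numbered 3 and 0.14 without WT 3. The genotypes did not overlap in 5 of the 53 genes, or 9.43%, all with Rsk2-KO higher, against 5.47% of all genes. None was lower without overlap, where 8.76% of all genes were. The list was not matched to all genes for span, and the median log2 difference rose with span, to 0.073 in the longest bin. The parts of gene length and of neuronal content in the values of this list were not tested.

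The 5 genes without overlap, named after their values were seen, were Nectin3, Ncam2, Cdh10, Cadm3 and Dlg4. Nectin3, an immunoglobulin-like adhesion protein of the mossy fibre synapse, gave 117, 137 and 106 on the Rsk2-KO arrays and 79.1, 90.6 and 83.9 on the WT arrays, a log2 difference of 0.50 (SE 0.16). Cdh10, a cadherin, gave 123, 133 and 112 against 96.8, 83.3 and 93.6, a log2 difference of 0.43 (SE 0.15). For Dlg4, which encodes PSD-95, the scaffold that binds neuroligins inside the postsynaptic cell, the signals were 283, 284 and 286 against 196, 203 and 249. Its log2 difference was 0.40 (SE 0.14), and both other kept probe sets of Dlg4 had the same sign. Ncam2, of the NCAM family, gave 42.6, 45 and 41.5 against 23.5, 36.4 and 35.7, a log2 difference of 0.46 (SE 0.24). Cadm3, a SynCAM protein, gave 327, 306 and 342 against 298, 280 and 275, a log2 difference of 0.19 (SE 0.13). The 2 other kept probe sets of Cadm3 had the opposite sign. Between the arrays numbered 3 these genes differed by 0.34 for Nectin3, 0.26 for Cdh10, 0.20 for Dlg4, 0.22 for Ncam2 and 0.32 for Cadm3, against 0.58, 0.51, 0.51, 0.58 and 0.13 over the arrays numbered 1 and 2.

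By role, the medians ran from −0.045 to 0.23, beside −0.038 for all genes. Of 7 measured presynaptic receptors other than neurexins, 6 passed the filter, with 3 above and 3 below 0. Their median of −0.045 was −0.051 over the arrays numbered 1 and 2 and turned to 0.073 between those numbered 3. The brightest of them, Ptprs, a receptor phosphatase that binds postsynaptic partners, had 931 ± 122 on the Rsk2-KO arrays and 1082 ± 122 on the WT arrays (SD, n = 3 arrays each), with a log2 difference of −0.22 (SE 0.15). Adgrl1, a latrophilin that binds teneurins, had 511 ± 77.4 and 547 ± 16.9, a log2 difference of −0.11 (SE 0.14).

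Of 10 measured postsynaptic leucine-rich repeat or immunoglobulin proteins, the list closest in kind to the LRRTM genes, 9 passed the filter, with 6 above and 3 below 0. Their median was 0.037 over the 6 arrays but −0.018 over the arrays numbered 1 and 2 and −0.045 between those numbered 3. Their log2 differences ran from −0.24 to 0.56. Lrrtm2, at 1.11, was chosen for its difference, so nothing is read from its larger value. The brightest were Nptn, neuroplastin, at 1370 ± 179 and 1253 ± 208 (log2 difference 0.14, SE 0.17), and Clstn1, a calsyntenin, at 866 ± 65.2 and 914 ± 54.2 (−0.078, SE 0.12).

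Of 15 measured secreted bridges, 9 passed the filter, with 7 above and 2 below 0. Their median of 0.081 turned to −0.036 over the arrays numbered 1 and 2 and was 0.12 between those numbered 3. Sparcl1, which links neurexins to neuroligins, had 2696 ± 676 on the Rsk2-KO arrays and 2656 ± 504 on the WT arrays, a log2 difference of 0.010 (SE 0.20). Like Nlgn2, it was highest on the arrays numbered 3, with 3474 and 3237 against 2242 to 2389 elsewhere. Nptx1, a neuronal pentraxin, was instead lowest there, at 691 and 593 against 1081 to 1416, with a log2 difference of −0.033 (SE 0.33). The receptors of LGI proteins that passed the filter, Adam11 and Adam23 of 3 measured, had log2 differences of −0.0057 (SE 0.21) and 0.47 (SE 0.24), with a median of 0.29 over the arrays numbered 1 and 2 and 0.12 between those numbered 3.

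Of 19 measured homophilic or heterophilic adhesion genes, 17 passed the filter, with 13 above and 4 below 0. Their median was 0.17, with 0.14 over the arrays numbered 1 and 2 and 0.042 between those numbered 3. Of the brightest, Cadm1, a SynCAM, had 644 ± 56.9 and 569 ± 133 (log2 difference 0.20, SE 0.18) and Ncam1 422 ± 73.7 and 410 ± 56 (0.034, SE 0.17). The 10 intracellular partners of neurexins or neuroligins had 7 above and 3 below 0 and a median of 0.12, the same over the arrays numbered 1 and 2 and 0.068 between those numbered 3. Sdcbp, syntenin, differed by 0.14 (SE 0.15), and Syt1, the calcium sensor synaptotagmin 1, by 0.10 (SE 0.12). Inhibitors of neuroligins were not measured.

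**Figure D4:**
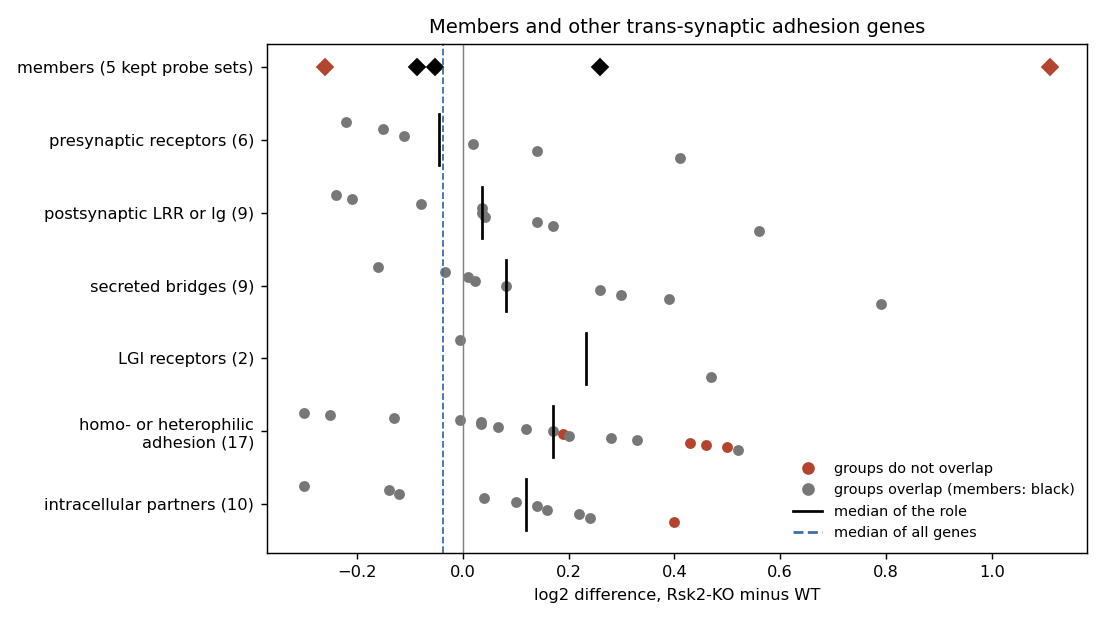
Log2 difference (Rsk2-KO minus WT) of the 5 kept member probe sets and of 53 other adhesion genes at their brightest probe set, by role, with the median of each role and of all genes (−0.038). Red points have no overlap between the genotypes. Lrrtm2, which was chosen for its difference, lies at 1.11, to the right of all other points. The next, at 0.79 (SE 0.52), is Nptx2, named here outside the rule for named genes. Its WT 3 signal of 6.88 was below the filter of 19.2, and over the arrays numbered 1 and 2 its log2 difference was −0.062.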

How the data were processed

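The values deposited by the authors are linear intensity values per probe set, made with MAS5 per the submitters' processing notes, which give no version or settings here. The biotinylated cRNA came from 6 micrograms of RNA, per the labels' protocols. The trimmed mean signal (2% removed at each end) was 100.034 to 100.037 on every array. Detection calls were not used here, and the number of arrays limits the precision. Of 22690 probe sets, 20393 had 1 gene symbol, 691 several and 1606 none in the GEO platform annotation; 20364 were matched by Entrez ID to RefSeq symbols (GRCm38.p6). Control probe sets (64) were excluded.

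Signals were put on a log2 scale and fitted with limma 3.58.1 in R 4.3.3 (lmFit, eBayes with an intensity trend, two-sided, Benjamini-Hochberg adjustment), with genotype as the only term, over the 13576 probe sets at or above the 40th percentile of mean log2 signal (19.2). Genes outside the members are represented by their brightest kept probe set. Python 3.11.15 computed the summaries. The fit was tested on simulated data. With 3 arrays a group an exact permutation test cannot pass 0.05, and none was run.

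Members and lists were chosen with earlier results of these data known. The genes named are every member, the 2 brightest of each role of the adhesion list and any past the threshold, the 5 closest to Lrrtm2, and Rps6ka3; exceptions are stated. Alternatives were median centring, quantile normalization, offsets of 16 or 64, other filters, no intensity trend, array weights, blocks for array number or for the arrays numbered 3, these arrays apart, 1 probe set per gene, and each array left out.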

Additional observations from a re-analysis of the deposited data

How the results depend on the processing

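No setting turned the sign of Lrrtm2, of the Lrrtm1 probe sets 1452624_at and 1437746_at or of the median of the other adhesion genes; the filter at the 60th percentile removed Lrrtm2 and 1437746_at, so neither had a value there, and the fit with 1 probe set per gene held only 1455883_a_at of Lrrtm1. The log2 difference of Lrrtm2 moved by more than its replicate SD in 3 of 18 settings (0.47, 1.51 and 0.32, given above). Probe sets called in limma over the whole table were 0 higher and 0 lower, except 176 higher and 20 lower within the arrays numbered 1 and 2, and 0 higher and 1 lower (Erdr1, adjusted p = 0.0204) with the array number as a replicate block. Deviations from the group means correlated by 0.096, 0.461 and 0.486 between same-numbered arrays (1, 2 and 3). Between arrays of different numbers the correlations ran from −0.486 to 0.265. The highest of these, 0.265, was between Rsk2-KO 1 and WT 2. Deviations within a group sum to 0, so the split of the arrays numbered 3 from the others also shapes the other correlations. A likeness by number apart from that split cannot be read from them, and whether the numbers mark pairs is unknown. None of the other adhesion genes was called under any setting with a test. Their median log2 difference was 0.041 with the filter at the 60th percentile, 0.048 with median centring, 0.052 with an offset of 64, and 0.068 to 0.14 with single arrays left out. Of the kept member probe sets, 2 were without overlap over the 6 arrays, where 13.9% of all were. This count was 1 of 3 with the filter at the 60th percentile (15% of all), 1 of 3 with 1 probe set per gene (14.2%), 3 within the arrays numbered 1 and 2, where 56.5% of all had none, and 2 to 3 with single arrays left out (17.4% to 35.8%). Fewer arrays raise this share for all probe sets, so nothing about the members is read from it. Signal over background limits Nlgn1 throughout, Lrrtm2 on WT 1 and WT 2, and Abhd18 on every WT array. It also limits Polr3f at 1439075_at (19.4 and 23) and Rps6ka3 at 1427299_at (13 and 16.2) on WT 1 and WT 2.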
